A study of Mus musculus with 12 samples.

Results

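The genes described here are the 36 whose RNA stood far higher in pancreatic islets of NOD than of C57BL/10 (B10) background, out of 38561 genes counted. They were chosen from the measurements themselves. A gene was taken when its lowest value in the 6 libraries of NOD background was at least 1 CPM (the count divided by the library total, times 1000000) and at least 4 times its highest value in the 6 libraries of B10 background. Of 13210 genes that reached 1 CPM in all 6 NOD-background libraries, 39 met this fold (0.295%), and 3 of them (Ifi202b, Zfp985 and Zfp990) were left out because their symbols belong to families excluded by the rule. The same rule turned round, B10 over NOD background, found 31 genes. Because the strain difference chose the 36 genes, their levels and strain ratios are given as a description with no test, and tests were made only for the transgene, which the rule did not use.

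RNA was sequenced from islets of 12 male mice aged 11 weeks, 1 library per mouse and 3 mice per group. The NOD group was NOD/LtJ and the B10 group C57BL/10SnSg, and NOD_insHEL and B10_insHEL were the same strains carrying Tg(ILK3mHEL)3Ccg, an insulin promoter transgene for hen egg lysozyme. All 4 groups shared a targeted Rag allele from a 129S7(B6) donor, which leaves mice without mature B and T cells, and the MHC k haplotype in place of the strains' own, and all mice were normoglycemic. Each strain comparison therefore sets a complete genetic background, less these shared regions, against another.

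Library totals ran from 2212062 counts (NOD_insHEL replicate 3) to 21138456 (B10 replicate 2), and 20 to 137 islets were picked per library. Marker genes of beta cells summed to 191410 to 282013 CPM in every library, which matched the islet label, and 3 of 8 lymphocyte markers, Cd3e and Ms4a1 among them, had 0 counts in all 12. Markers of acinar cells, with 8 of 9 detected and Amy2a4 at 0, summed to at most 185 CPM in NOD and 28.3 to 55.9 in NOD_insHEL, beside 2893 to 3746 in B10 and 24.3 to 1901 in B10_insHEL. The epsilon cell marker Ghrl stood at 2.83 to 15.1 CPM in B10 background and 0 to 0.168 in NOD background. Ghrl thus lay on the opposite side from the 36 genes, while the acinar ranges of the 2 backgrounds overlapped. The 8 beta markers summed to 253879 to 282013 CPM in NOD background and 191410 to 255887 in B10 background, with ranges that overlapped slightly. This sum follows mainly Ins2 (110784 to 175484 CPM over all libraries), Ins1 (45004 to 80085) and Iapp (17563 to 36035). Iapp was lower in NOD background, by a fitted log2 difference of -0.60, and strain values of the other beta markers are not given here. The 5 endothelial markers, all detected, summed to 842 to 1267 CPM in NOD and 589 to 721 in NOD_insHEL. They summed to 571 to 625 CPM in B10 and 589 to 618 in B10_insHEL, so the NOD_insHEL range overlapped both B10-background groups. The part of these markers in the levels given here was not tested. In bulk islets, more RNA per cell and more cells of the type that makes it cannot be told apart.

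Inbred strains are fixed for different alleles, so a gene can be active in 1 strain and close to silent in another. A further source of strain-specific counts in short-read data is the copy: processed pseudogenes are reverse-transcribed copies of an mRNA inserted elsewhere in the genome, and unprocessed ones arise by duplication of a gene. Where a copy and its parent are nearly identical, a short read can fit both, and small changes in either sequence decide where it is placed.

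Protein-coding genes made up 21 of the 36 genes (58.3%), compared with 91.6% of the genes that reached the level minimum. Pseudogenes contributed 8 (22.2%, compared with 4.41%) and non-coding RNA genes 6 (16.7%, compared with 3.16%). The remaining member, ENSMUSG00000091089, had no entry in the annotation used (GENCODE vM21, GRCm38) and stood at 4.43 to 6.09 CPM in NOD and 0.0946 to 0.306 in B10 background. The 35 annotated genes were spread over 17 chromosomes. Chromosome 11 held 6, among them 8430429K09Rik, Elobl, Gm11592, Pdlim4 and Psmc3ip, or 0.547% of its 1097 genes at the level minimum. Chromosomes 7, 14 and X held 3 each (0.311%, 0.693% and 0.598%), so chromosome 11 did not have the highest share. Chromosomes 9, 16, 17 and Y, with 707, 415, 639 and 4 such genes, held none. Only Serpina3g and Serpina3h lay within 1 Mb of another member. By symbol, 3 of 246 tested solute carrier genes and 2 of 21 tested serpin genes were members, beside 36 of all 15352 tested genes. Of the 40 symbol groups searched, 35 had none, among them cytochrome P450 (24 tested genes), keratin (13) and collagen (41). With so few members among all tested genes, nothing is read from their absence in groups of this size.

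**Figure D1:**
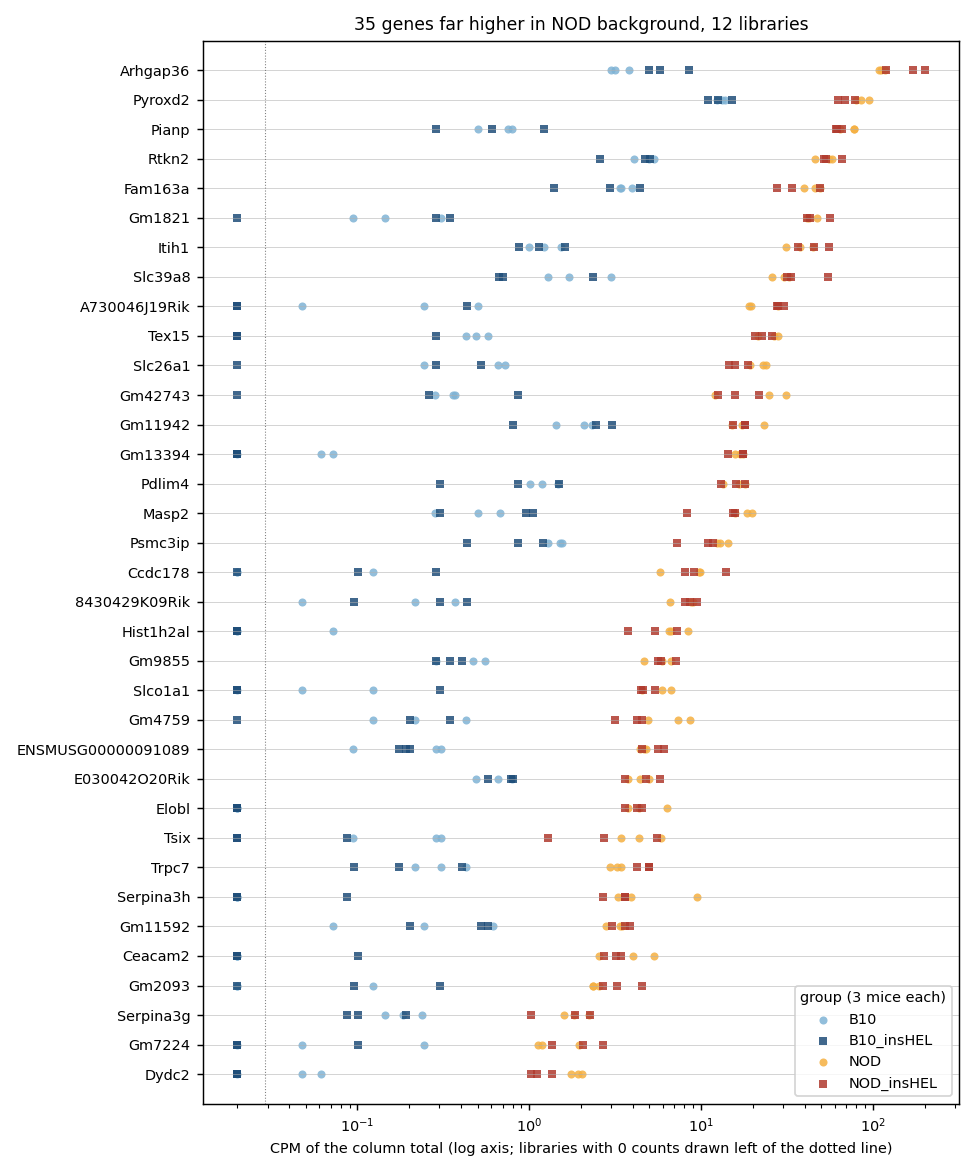
CPM (log axis) of 35 of the 36 genes in each of the 12 libraries, 1 point per mouse, with circles for groups without and squares for groups with insHEL, and libraries at 0 counts drawn left of the dotted line. The gap between blue (B10 background) and orange or red (NOD background) points is set by the rule, and 25 of the 36 genes vary less than 2-fold across the 6 NOD-background libraries.

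Among the protein-coding members with roles in signalling, adhesion or the cytoskeleton, Arhgap36 (ENSMUSG00000036198, chromosome X, 49463945 to 49500244) showed the rule's pattern at high counts. Arhgap36 carries a GTPase-activating domain and is known as an inhibitor of protein kinase A and an activator of Hedgehog signalling. NOD replicates 1 to 3 had 109, 118 and 112 CPM of it and NOD_insHEL 172, 201 and 119, whereas B10 had 3.00, 3.83 and 3.16 and B10_insHEL 8.48, 5.75 and 4.96. The pooled ratio of NOD to B10 background was 30.6, and within each strain the libraries with insHEL lay above those without.

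Pianp (chromosome 6, 124996694 to 125003096), which encodes a neural membrane protein that binds the inhibitory immune receptor PILRα, showed a wider gap. Its values were 0.286 to 1.22 CPM over the 6 B10-background libraries, 77.1, 77.5 and 64.0 in NOD and 61.4, 60.9 and 66.5 in NOD_insHEL. The highest NOD-background library was 1.27 times the lowest, so the 6 mice were close to each other. Rtkn2, a protein of the rhotekin family, had 46.1 to 66.4 CPM in NOD background and 2.57 to 5.32 in B10 background. Pdlim4, an actin-associated PDZ and LIM protein, had a median of 16.3 CPM in NOD background and 0.303 to 1.48 in B10 background.

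Trpc7 and Ceacam2, also of this group, were counted at low levels. Trpc7, a diacylglycerol-gated cation channel, had 2.95 to 4.98 CPM in NOD background and 0.0953 to 0.426 in B10 background. Ceacam2, an adhesion protein of the carcinoembryonic antigen family, had 2.53 to 5.29 CPM in NOD background and 1 count over all 6 B10-background libraries, a pooled ratio of 308 with an exact 95% counting interval of 54.6 to 12225.

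Of the 3 transporters, Slc39a8 (chromosome 3, 135825279 to 135888572), the zinc and manganese importer ZIP8, stood at 32.5, 30.4 and 25.7 CPM in NOD, 54.7, 31.5 and 33.5 in NOD_insHEL and 0.667 to 3.00 over the B10-background libraries. NOD_insHEL replicate 1 was the high library of its group. Slc26a1, a sulfate and oxalate exchanger, had 14.5 to 23.8 CPM in NOD background and 0 to 0.718 in B10 background. Slco1a1, an organic anion carrier known from liver, had a median of 5.02 CPM in NOD background and 0 to 0.303 in B10 background.

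Proteases and protease inhibitors supplied 3 coding members. Itih1, a heavy chain of the inter-alpha-trypsin inhibitor that becomes attached to hyaluronan, was at 31.2 to 55.2 CPM in NOD background and 0.871 to 1.62 in B10 background. Masp2, the protease that starts the complement cascade from lectins, was at 8.30 to 19.7 and 0.284 to 1.05 CPM. Serpina3g, a serine protease inhibitor, was at 1.03 to 2.26 and 0.0871 to 0.237 CPM. Itih3, the closest match of Itih1, was near the limit of detection, at 0 to 0.514 CPM in NOD and 0 to 0.0613 in B10 background. Masp1, the closest match of Masp2, was at 0 to 1.03 and 0.436 to 1.72 CPM, with overlapping ranges.

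A pair of members act in meiosis. Tex15, needed for double-strand break repair and transposon silencing in male germ cells, was counted at 28.0, 26.4 and 21.4 CPM in NOD and 20.7, 22.6 and 25.8 in NOD_insHEL. In B10 it had 0.490, 0.426 and 0.575 CPM, and in B10_insHEL 0, 0 and 0.286. Psmc3ip, the strand-exchange cofactor also called Hop2, had 7.23 to 14.4 CPM in NOD background and 0.436 to 1.56 in B10 background.

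The 6 other coding members have separate or little-known roles. Pyroxd2, a mitochondrial oxidoreductase-like protein, had the narrowest margin, with 62.4 CPM or more in NOD background and 10.9 to 15.1 in B10 background. Fam163a, also called neuroblastoma-derived secretory protein, had 27.5 to 49.4 and 1.39 to 4.44 CPM. A730046J19Rik, at 18.9 to 30.4 CPM in NOD background, had 0 to 0.503 in B10 background. Ccdc178 (5.74 to 14.0 CPM in NOD background) and Dydc2 (1.03 to 2.02 CPM) had 6 and 2 counts in all over the B10-background libraries, and for Dydc2 the pooled ratio of 65.5 carries a counting interval of 17.6 to 550. Elobl, an elongin B-like gene, was the 1 member with 0 counts in all 6 B10-background libraries, where 3 counts would be 0.142 to 0.303 CPM. It had 3.62 to 6.36 CPM in NOD background. Pooled over the NOD-background libraries, its level was at least 124-fold higher, computed against 3 counts summed over those 6 B10-background libraries. Intervals and such bounds cover counting error only.

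Per kb of annotated exon, which allows genes to be compared, Gm11942 was highest with a median of 51.3 CPM per kb over the NOD-background libraries, ahead of Gm1821 (44.0), Arhgap36 (34.6) and Pianp (22.9). The ranges of Gm11942 (44.2 to 66.8), Gm1821 (42.3 to 57.5) and Arhgap36 (31.8 to 58.7) overlapped, and that of Pianp (21.4 to 27.2) lay below them. Tsix was lowest, at 0.640 CPM per kb. For pseudogenes the per-length level includes any reads that also fit a parent gene.

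Of the 8 pseudogenes, 5 were processed copies and 3 came from gene duplication. To see how far each member can be told from other genes, its annotated transcripts were divided into all stretches of 50 bases and searched in all other transcripts. Of 35 members with a sequence, 13 shared no stretch and 21 shared under 10% of their stretches, while 5 shared at least 50%. Those 5 were Gm13394 (94.7%, nearly all with Gapdh), Gm9855 (85.3%, mainly Tdg), Gm1821 (84.9%, mainly Ubb), Hist1h2al (67.6%, mainly Hist2h2aa2) and Masp2 (52.5%, all with Tardbp on the opposite strand). Whether reads that fit several genes were counted is not given in the sources used here, so the counts of these members and their partners are uncertain.

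The 3 pairs of sequences show what separates a member from its closest copy. Each line holds 90 bases of the GENCODE vM21 transcript, written 5′ to 3′, with the bases that differ within the pair in capitals. Gm13394 (bases 301 to 390) and Gapdh (393 to 482) show the case with a single difference, which is also the only mismatch in 1000 aligned bases. Gm9855 (1038 to 1127) and Tdg (1199 to 1288) differ at 4 bases here and at 9 of 1194 aligned. Ceacam2 (604 to 693) and Ceacam1 (1120 to 1209) are shown where their coding sequences, aligned without gaps, differ most. They differ there at 30 bases, in an alignment that is 92.8% identical over 2676 letters.
Gm13394: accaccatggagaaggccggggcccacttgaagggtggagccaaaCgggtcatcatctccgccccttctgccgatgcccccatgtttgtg
Gapdh: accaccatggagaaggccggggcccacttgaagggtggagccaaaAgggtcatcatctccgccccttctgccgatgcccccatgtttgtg
Gm9855: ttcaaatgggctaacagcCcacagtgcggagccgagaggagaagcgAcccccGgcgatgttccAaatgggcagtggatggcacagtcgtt
Tdg: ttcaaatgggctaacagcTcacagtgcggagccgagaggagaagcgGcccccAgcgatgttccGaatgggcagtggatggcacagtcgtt
Ceacam2: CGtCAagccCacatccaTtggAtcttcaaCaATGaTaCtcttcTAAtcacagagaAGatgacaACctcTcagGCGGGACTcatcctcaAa
Ceacam1: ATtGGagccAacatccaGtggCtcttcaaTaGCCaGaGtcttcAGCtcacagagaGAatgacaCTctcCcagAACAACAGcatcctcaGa

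Gm13394 (chromosome 2, 28933610 to 28934609) is a copy of Gapdh, the glycolytic enzyme gene on chromosome 6. It had 16.8, 17.6 and 15.7 CPM in NOD, 17.5, 14.4 and 17.6 in NOD_insHEL and 2 counts over the 6 B10-background libraries, a pooled ratio of 695 (counting interval 192 to 5747). Counts of Gapdh itself were low, at 5.19 ± 0.813 CPM in NOD and 4.50 ± 0.522 in NOD_insHEL, beside 3.61 ± 0.443 in B10 and 2.40 ± 0.341 in B10_insHEL (SD, n = 3 each). The counts placed on Gapdh were thus 1.61-fold higher in NOD background, a far smaller ratio than that of the copy. Since 94.7% of the stretches of Gm13394 are shared, nearly all with Gapdh, reads of either may be placed on the other or left uncounted. The level and strain ratio of the parent's RNA therefore cannot be read from these counts.

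Gm9855 (chromosome 10, 42054113 to 42055306) is a copy of Tdg, a DNA glycosylase gene on the same chromosome. Gm9855 had 5.72 ± 1.02 CPM in NOD and 6.23 ± 0.842 in NOD_insHEL, and 0.286 to 0.551 over the B10-background libraries. Tdg ran the other way, with 1.51 ± 0.956 CPM in NOD and 0.942 ± 0.513 in NOD_insHEL but 4.18 ± 0.945 in B10 and 3.66 ± 0.506 in B10_insHEL (SD, n = 3 each), 3.20-fold higher in B10 background. Tdg libraries of the 2 backgrounds did not overlap.

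Gm1821 (chromosome 14, 46084028 to 46085000) copies the polyubiquitin gene Ubb. Gm1821 was at 47.0, 42.5 and 41.2 CPM in NOD and 56.0, 43.0 and 41.1 in NOD_insHEL, with 16 counts in all over the 6 B10-background libraries. Ubb was at 112 ± 7.22 CPM in NOD and 113 ± 16.5 in NOD_insHEL, and at 133 ± 1.14 in B10 and 162 ± 28.6 in B10_insHEL (SD, n = 3 each). Ubb in NOD background was 0.764 times its level in B10 background, a difference in the direction opposite to the copy.

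Hist1h2al (chromosome 13, 51202727 to 51203065), annotated as a processed pseudogene of a histone H2A gene, had 3.78 to 8.38 CPM in NOD background and 1 count in B10 background (ratio 524, counting interval 93.5 to 20771). Its closest match, Hist2h2aa2, is 99.4% identical and had 0 counts in all 12 libraries. Gm11942 is 97.7% identical to Gm10073 over its whole length and had 15.2 to 23.1 CPM in NOD and 0.808 to 3.05 in B10 background, while the ranges of Gm10073 overlapped (26.5 to 44.2 and 19.5 to 30.4). The 3 duplicated pseudogenes were Gm4759 (3.14 to 8.57 and 0 to 0.426 CPM), Gm7224 (1.13 to 2.67 and 0 to 0.245) and Serpina3h. Gm4759 matched Gvin1, a large interferon-inducible GTPase gene, at 86.8% identity, and Gvin1 had 0 counts in all NOD-background libraries and 0.142 to 0.503 CPM in B10 background.

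Coding members with close paralogs showed the same kind of opposition at Ceacam2 and Slco1a1. Ceacam1, the neighbour of Ceacam2 on chromosome 7, was at 3.31 ± 0.663 CPM in NOD and 1.83 ± 0.425 in NOD_insHEL but 16.9 ± 1.24 in B10 and 12.7 ± 1.98 in B10_insHEL (SD, n = 3 each), 5.75-fold higher in B10 background. Ceacam2 and Ceacam1 share 46.7% of the 50-base stretches of Ceacam2, so reads of either may be placed on the other.

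Slco1a1 lies in a chromosome 6 cluster of organic anion carriers whose members went both ways. Slco1a6 was at 159 to 296 CPM in NOD and 66.4 to 111 in B10 background, and Gm6614 at 1.16 to 2.27 and 0 to 0.436. Slco1a5 was 2.69-fold higher in B10 background, and Gm20400 had 7.15 to 17.2 CPM there and 0 counts in all 6 NOD-background libraries. Slco1a1 itself shared 1.64% of its stretches with other genes.

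**Figure D2:**
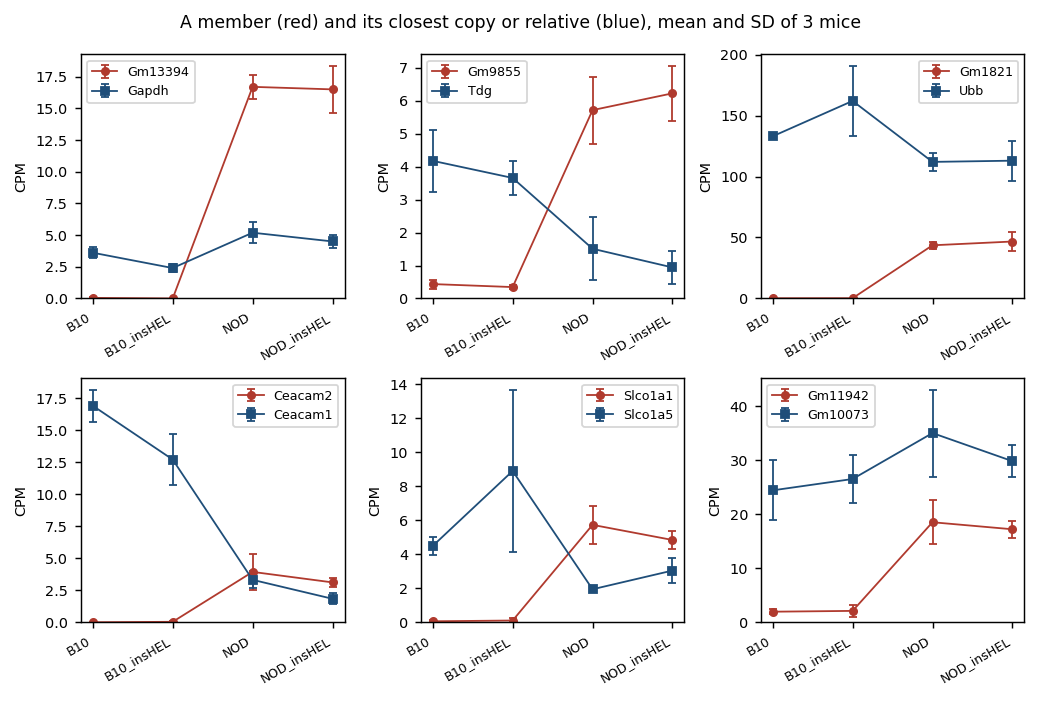
Mean CPM with SD (n = 3 mice) in the 4 groups for 6 members (red circles) and the closest copy or relative of each (blue squares), on linear axes that start at 0. Tdg, Ceacam1 and Slco1a5 stand lower in NOD background where their partners stand higher, while Gapdh, Ubb and Gm10073 differ less.

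The 6 non-coding members were Gm42743, 8430429K09Rik, E030042O20Rik, Tsix, Gm11592 and Gm2093. Gm42743, in a histone gene cluster on chromosome 3, had a median of 18.7 and a highest value of 31.2 CPM in NOD background and 0 to 0.858 in B10 background. It overlaps Hist2h2bb on the same strand over 15.0% of its exonic bases. Tsix, the antisense RNA of the X inactivation centre, was at 5.81, 4.38 and 3.40 CPM in NOD, 1.29, 5.52 and 2.71 in NOD_insHEL and 0 to 0.306 in B10 background. Tsix varied 4.50-fold among the NOD-background libraries, more than any other member, and NOD_insHEL replicate 1 was its low library. Xist, which overlaps 32.6% of the exonic bases of Tsix on the opposite strand, stayed between 0.101 and 0.887 CPM in all 12 libraries of these male mice.

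For 4 non-coding members a coding gene starts or ends close by on the opposite strand, and none of these genes showed a comparable strain difference. 8430429K09Rik (6.57 to 9.49 CPM in NOD and 0.0473 to 0.436 in B10 background) starts 0.002 kb from Rnf185, whose log2 difference of NOD minus B10 background was 0.39. E030042O20Rik (3.62 to 5.78 and 0.490 to 0.808 CPM) starts 0.129 kb from Nfe2l2, the gene of the oxidative stress regulator Nrf2, which differed by 0.25. Gm11592 (2.81 to 3.85 and 0.0718 to 0.615 CPM) overlaps the aminopeptidase gene Npepps, which differed by -0.18. Gm2093 (2.34 to 4.52 and 0 to 0.303 CPM) starts 294 bases from the divergent gene AW549877, which differed by -0.20.

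The region between Gm2093 and AW549877 is printed because a shared stretch of promoter lies beside a gene with a pooled strain ratio of 37.6 and a gene with nearly equal levels in both backgrounds. The 250 bases upstream of Gm2093 (RefSeq, GRCm38.p6, chr15:3995789-3996038, plus strand, 5′ to 3′) are given with GGGCGG or its reverse complement CCGCCC in capitals. This window holds 4 such matches and 21 CG pairs.
Gm2093: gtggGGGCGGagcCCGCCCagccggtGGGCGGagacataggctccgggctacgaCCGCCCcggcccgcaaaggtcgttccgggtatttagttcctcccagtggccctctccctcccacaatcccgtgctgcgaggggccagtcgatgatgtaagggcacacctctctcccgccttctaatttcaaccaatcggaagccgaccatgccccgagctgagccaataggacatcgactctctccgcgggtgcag

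The same 250-base windows were found for 21 members (29 windows, as some genes have several starts). GGGCGG on either strand was present in 8 of the 29 (27.6%, compared with 32.7% of all 32851 promoter windows), TATAAA on either strand in 3 (10.3%, compared with 12.4%) and TGACGT on either strand in 0 (compared with 6.47%). None of the 3 motifs overlaps another in its letters. Windows are from the reference strain, and NOD sequence was not analysed here.

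To see how far the strain difference reached along the chromosomes, all tested genes starting within 500 kb of a member were taken. Of 408 such neighbours that were not members, 20 (4.90%) were higher in NOD background by at least 1 on the log2 scale and 16 (3.92%) were lower, beside 4.08% and 3.58% of all 15352 tested genes. The median neighbour differed by 0.02, and 20 of the 35 members with a position had no neighbour that was higher by 1. Most genes near a member thus differed by less than 1.

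The Serpina3 cluster on chromosome 12 was the exception. Serpina3g (104236245 to 104241939) and Serpina3h (104247905 to 104253669) had 4 other tested neighbours, and all of them were higher in NOD background, Serpina1b by a log2 difference of 3.54, Serpina3f by 3.25, Serpina3i by 3.06 and Serpina3n by 1.68. Most were near the limit of detection. Serpina3f had 0 to 2.22 CPM and Serpina3i 0.452 to 1.80 in NOD background, whereas Serpina3n had 6.91 to 13.1 CPM in NOD and 1.21 to 4.66 in B10 background. Serpina3h had 2.67 to 9.46 CPM in NOD background, with NOD replicate 3 as the high library, and 1 count in B10 background (ratio 347, counting interval 61.7 to 13785). Serpina3h shared 21.9% and Serpina3g 15.5% of their stretches with other genes, chiefly in this cluster, so single members of it are uncertain.

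Elsewhere 1 or 2 neighbours of a member were higher. C1s2, a complement protease gene near Pianp, had the highest log2 difference of the neighbours, 5.08, at 1.18 to 2.07 CPM in NOD and 0 to 0.331 in B10 background. The surfactant protein genes Sftpa1 and Sftpd near Dydc2 differed by 1.09 and 1.43, and the raised neighbours of Slco1a1 are given above. Angptl7, an angiopoietin-like secreted protein gene near Masp2, was at 78.3 to 107 CPM in NOD and 6.36 to 19.8 in B10 background and missed the rule narrowly. Barhl1, 17.94 kb from Gm13394, differed by a log2 value of 2.22, and Zfp365, near Rtkn2, by 1.85. Slc22a4 and Slc22a21, carnitine and cation transporter genes next to Pdlim4, differed by 1.79 and 1.82, while Slc22a5 in the same row of genes differed by 0.26.

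**Figure D3:**
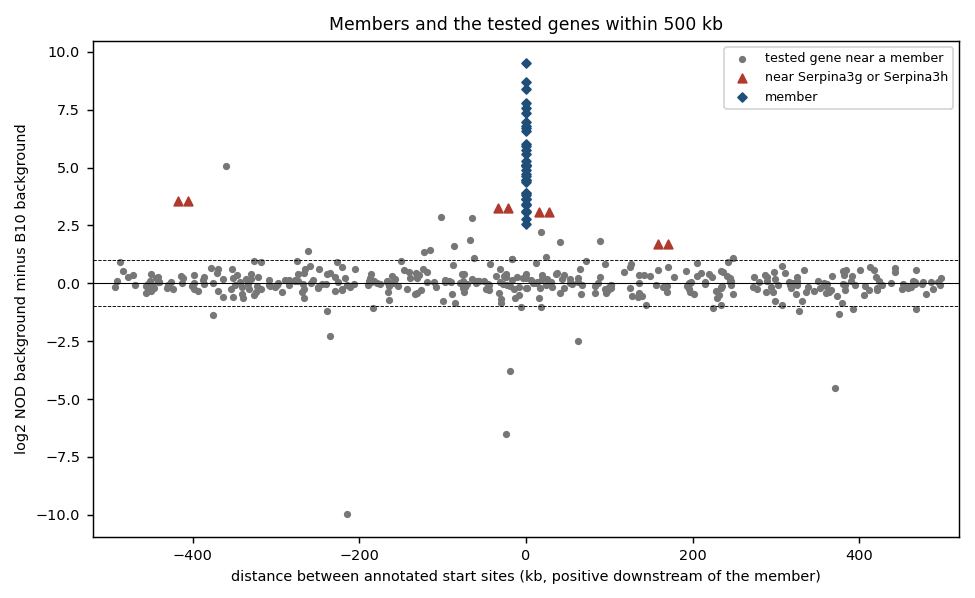
Fitted log2 difference of NOD minus B10 background for the members (blue diamonds, drawn at distance 0) and for tested genes within 500 kb, against the distance between annotated starts. Neighbours are grey points, or red triangles where the nearby member is Serpina3g or Serpina3h, each drawn once per nearby member. Most neighbours lie between the dashed lines at 1 and -1, with a median of 0.02.

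Other genes share bases with members on the opposite strand, which matters because the strand setting of the counting is not given in the sources used here. Exons of 10 members overlap an exon of another gene, all 10 on the opposite strand and 2 also on the same strand. The largest overlap is that of Masp2, with 54.9% of its exonic bases inside Tardbp, a gene for an RNA-binding protein. Tardbp was at 211 to 276 CPM in B10 background, where Masp2 had 0.284 to 1.05, and at 218 to 254 in NOD background. Psmc3ip shares 21.2% of its exonic bases with Mlx, which was at 44.5 to 57.9 CPM in B10 and 47.8 to 63.8 in NOD background.

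Whether insHEL changed the 36 genes was tested within each strain by edgeR's quasi-likelihood test with Benjamini-Hochberg adjustment over all 15352 genes tested. All 36 passed the filter on low counts, which the rule on NOD-background levels favours. In NOD background 1084 genes (7.06%, with 3.88% higher in NOD_insHEL) passed an adjusted p of 0.05, and 1 of the 36 did. In B10 background 1052 genes (6.85%, with 4.09% higher in B10_insHEL) passed, and again 1 of the 36. Both calls were Arhgap36. Nothing is read from these shares, since the rule chose genes with low counts in B10 background and with limits that every library had to meet, with and without insHEL. The median log2 difference of the 36 genes was 0.02 in NOD background and -0.03 in B10 background, beside -0.01 and -0.00 over all tested genes. Nothing is read from the B10-background median. Of the 36 genes, 1 had 0 counts over the 6 B10-background libraries and 5 had 1 to 3 in all, too few to show a shift.

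Arhgap36 rose with insHEL by a log2 difference of 0.64 (SE 0.16, 1.56-fold, adjusted p = 0.0229, edgeR) in NOD background, where all 3 NOD_insHEL libraries lay above all 3 NOD libraries. In B10 background it rose by 1.06 (SE 0.22, 2.08-fold, adjusted p = 0.00806, edgeR), again with no overlap. The difference between the 2 effects was -0.41 (SE 0.27, adjusted p = 0.567, edgeR), which was not past the threshold. In NOD background the adjusted p moved to 0.0651, 0.0769 and 0.0820 without NOD replicate 1, 2 or 3 and to 0.108 and 0.138 without NOD_insHEL replicate 1 or 2, with log2 differences of 0.63, 0.67, 0.64, 0.61 and 0.48 in the same order. The call there thus needs each of these 5 libraries, although the difference without 4 of them was about as large, while in B10 background the call held without any 1 library (adjusted p 0.00209 to 0.0444). The sum of 4 duct markers was lower in NOD_insHEL (13.6 to 26.2 CPM) than in NOD (98.7 to 168). It follows mainly Spp1, at 9.95 to 153 CPM over all libraries, beside at most 10.0 for Krt19, 3.70 for Sox9 and 1.74 for Cftr. Summed endothelial markers were also lower in NOD_insHEL (589 to 721) than in NOD (842 to 1267). Acinar markers were lower with insHEL in both strains. The part of these markers in the Arhgap36 result was not tested. In the labels the sample numbers of the 3 B10 libraries lie in a range of their own, apart from the 9 others, so that transgene and number range cannot be told apart in B10 background.

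The 250 bases upstream of the first annotated start of Arhgap36, the gene called in both strains, are printed for reference (RefSeq, GRCm38.p6, chrX:49463695-49463944, plus strand, 5′ to 3′). They hold none of the 3 motifs searched.
Arhgap36: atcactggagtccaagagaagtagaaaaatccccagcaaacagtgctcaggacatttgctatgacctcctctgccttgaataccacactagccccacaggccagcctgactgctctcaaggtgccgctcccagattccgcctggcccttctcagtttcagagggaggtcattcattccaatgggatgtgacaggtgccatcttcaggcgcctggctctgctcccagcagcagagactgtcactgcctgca

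Tex15 gave the next lowest p in B10 background, with a log2 difference of -2.12 (SE 0.69, adjusted p = 0.0695, edgeR). This rests on 8, 9 and 8 counts in the 3 B10 libraries and 3 counts in the 3 B10_insHEL libraries, all in replicate 3, and the gene passed the filter on low counts through the NOD-background libraries. With only the 2 B10 groups in the fit, Tex15 did not pass the filter and had no value. Without B10_insHEL replicate 3 the difference was -5.47 (adjusted p = 0.0125, edgeR), and that group then had 0 counts, so the fitted size depends on the prior count and is no bound. In NOD background, where the gene had 57 to 349 counts per library, Tex15 differed by -0.07 (SE 0.20, adjusted p = 0.867, edgeR).

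For the interaction of strain and transgene, 9 of all genes passed by edgeR (0.0586%) and 78 by DESeq2, and 0 of the 36 by either. At an unadjusted p under 0.05 there were 2 of the 36, compared with 12.2% of all genes. These were Tex15 (log2 2.05, SE 0.73, adjusted p = 0.270, edgeR) and Masp2 (-1.25, SE 0.55, adjusted p = 0.376, edgeR). Low counts in B10 background limit this test, as the standard error of Serpina3h was 1.85 and that of Gm13394 1.40.

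Without reference to the fit, NOD_insHEL and NOD libraries did not overlap for 8 of the 36 genes, compared with 27.9% of all tested genes (8.34% higher and 19.6% lower). Arhgap36, Trpc7 and Gm2093 were higher in all 3 NOD_insHEL libraries, and Psmc3ip, Dydc2, Slc26a1, Gm4759 and Pyroxd2 lower. In B10 background 4 did not overlap, with Arhgap36 higher and Tex15, Psmc3ip and Tsix lower in B10_insHEL. Over all tested genes the share was 30.3% (6.70% higher and 23.6% lower), but it cannot be set against that of the 36 genes, many of which tie at 0 counts in B10 background. Arhgap36 and Psmc3ip were in both groups, and Psmc3ip did not pass the test in either (log2 -0.26, adjusted p = 0.555 in NOD and -0.68, adjusted p = 0.269 in B10, edgeR).

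**Figure D4:**
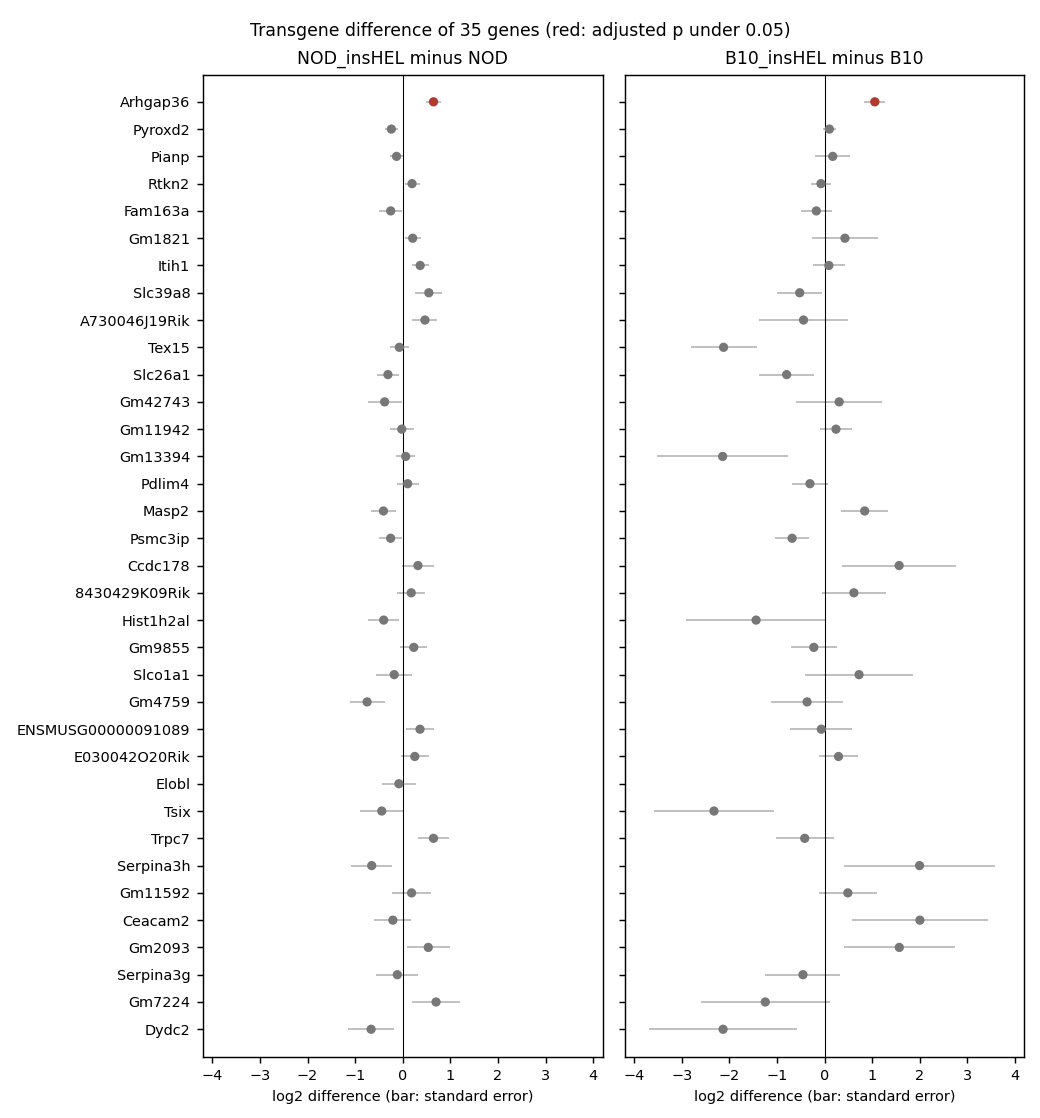
Fitted log2 difference with its standard error for NOD_insHEL minus NOD (left) and B10_insHEL minus B10 (right), 1 line per gene for 35 of the 36 genes in the order of level, with Elobl left out on the right because it has 0 counts there. Arhgap36 alone is past an adjusted p of 0.05 (red) in either panel, and the bars are wider in B10 background, where counts are low.

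The rule's limits fall within a continuous range of values. Just inside the fold of 4 stood Pyroxd2 (4.15 from the highest B10-background to the lowest NOD-background library), Tsix (4.21) and Serpina3g (4.34), and just outside it Angptl7 (3.95), Ube2u (3.87) and Tescl (3.74). Just inside the level of 1 CPM stood Dydc2 (1.03), Serpina3g (1.03) and Gm7224 (1.13), and just outside it 1700001O22Rik (0.904), Klhl1 (0.831, with 0 counts in B10 background) and Samd11 (0.738). With library sizes scaled by TMM, Pyroxd2 no longer met the fold and Zgrf1 did. At the other end, 18 of the 36 genes had a lowest NOD-background value at least 10 times the highest value in B10 background.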

How the data were processed

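RNA of isolated islets from 12 mice was sequenced with a stranded mRNA kit, per the labels' protocols, which also state that transcription inhibitors were present during islet isolation. The deposited file is a table of whole-number counts, by Ensembl gene and library, not normalized by the authors. Its build is GRCm38, and cutadapt, TopHat2 2.0.8b, HTSeq and DESeq are listed, per the submitters' processing notes. Which annotation was used, how strand was set and the handling of reads that fit several genes are not given in the sources used here. GRCm38 is the genome of a strain close to B10, so reads that differ between strains can be placed differently, which was not tested.

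CPM were computed from column totals, and the rule for membership was applied to them. Gene types and positions came from GENCODE vM21, which holds 36723 (95.2%) of the identifiers in the table. Shared stretches of 50 bases were searched in its transcripts, and alignments used BLAST 2.17.0. Promoter windows came from RefSeq (GRCm38.p6).

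Counts were fitted in R 4.3.3 with edgeR 4.0.16 (filterByExpr, TMM factors 0.925 to 1.05, robust quasi-likelihood, 1 model with 4 group means, common biological coefficient of variation 0.142). Tests were two-sided. The edgeR step was run on simulated counts for insHEL in NOD background only. The tests in B10 background, the interaction and genes near 0 counts in 1 background were not covered by it. DESeq2 1.42.0, other scalings and filters, the number of picked islets as a covariate, a replicate block and leaving out each library were alternatives.

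Values of several libraries are given as mean ± SD over 3 mice. The mice are separate samples per the labels. The p-values test group differences against a variation between mice that was estimated over all 4 groups, with information shared between genes. Members and gene lists were chosen with earlier results of these data known. Genes were named by a rule: members with ordinary symbols by level, members called for the transgene, members with 0 counts in B10 background, clustered members, those next to the rule's limits, the highest pseudogenes and non-coding genes, and members in a listed family. Copies, relatives and neighbours, and the remaining members, were added after their values were seen. Of the 36 genes, 1 is counted in the totals but is not reported here.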

Additional observations from a re-analysis of the deposited data

How the results depend on the processing

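The set of 36 genes depends on the limits set. A fold of 8 left 23 genes, the 6 insHEL libraries alone gave 59 and the 6 libraries without insHEL 75, where using fewer libraries can only add genes, and leaving out 1 library gave 36 to 40. For insHEL in NOD background, the number of all genes called was 107 to 1522 without 1 library and that of the 36 was 0 to 1. For insHEL in B10 background, all genes called were 578 with the number of picked islets as a covariate, 646 with only the groups compared and 428 to 1566 without 1 library. Of the 36, 2 were called with no filter on low counts (Arhgap36 and Tex15, the latter at a log2 difference of -2.14 and an adjusted p of 0.0349 by edgeR) and 1 to 2 without 1 library. For the interaction, all genes called were 78 with DESeq2, 161 with no filter, 4 with the islet covariate and 2 to 162 without 1 library (162 without B10_insHEL replicate 2), and 0 of the 36 under each of these. The cause of these shifts was not tested. The log2 differences followed for Arhgap36, Tex15 and Masp2 kept their sign under the alternatives run for them. Without NOD replicate 1, the calls for insHEL in NOD background numbered 844, with fewer higher than lower. In B10 background 1 of the 36 genes has 0 counts and 5 have 1 to 3 in all, as the rule selects, which limits tests there.

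Replicate numbers are shared across groups, but nothing in the labels says that they pair mice. Deviations of 18 same-numbered pairs of libraries correlated at a mean of 0.0002 (-0.095 to 0.080), and those of 36 differently numbered pairs at -0.0001. Of 12 libraries, 4 were closest to a library of their own number. No shared effect of the numbers was thus seen, which cannot show that the mice were unpaired. With a replicate block, 961 genes were called for insHEL in NOD background, 1032 in B10 background and 8 for the interaction, and Arhgap36 was the 1 member called in each strain (log2 0.62 and 1.06). The calls among the 36 genes were the same with the block as without it.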
